A study of Mus musculus with 15 samples.

Results

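Brains of mice with blockage of the middle cerebral artery (MCAO) and the treatment labelled UA were compared with brains of sham-operated mice. The aim was to see which transcripts still differed from sham under treatment. Every gene with at least 10 counts in 3 or more of the 6 libraries entered the comparison, which kept 14590 of the 18931 genes in the table. The 6 libraries, 3 of sham and 3 of UA, are part of 15, and vehicle and the treatments labelled JA and JU supply the other 9, also 3 a group. All mice were of the outbred Kunming stock, and the labels put the MCAO model on every group, sham included. The study title names jasminoidin and ursodeoxycholic acid, a bile acid, in injury from ischemia followed by reperfusion, but the labels do not spell out UA, JA or JU. The labels give no dose, time, age or part of the brain, and do not say whether each library is a different animal. The p-values therefore cover the variation among these libraries, part or all of which could be technical.

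Immediate early genes are switched on in neurons within a short time of electrical activity or other stimuli, before any new protein is needed. Many of them encode transcription factors, and the phosphatase Dusp1 and the synaptic protein Arc belong to the same early wave. After a stroke, microglia (the resident immune cells of the brain) move from a homeostatic to a phagocytic state and astrocytes raise Gfap, while neurons of the striatum are often lost because the blocked artery feeds it.

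Total counts ran from 18346180 to 20350883 in the 6 libraries, and 16582 to 16709 genes were detected in each. UA replicate 2 stood apart. It sat at 34.0 on the first principal component, which held 33.2% of the variance, against 1.39 and 7.32 for the other UA libraries and -17.3 to -11.3 for sham. It had 385 genes more than 2-fold above the sham mean, against 132 and 142 in UA replicates 1 and 3. It also carried transcripts of cerebellar neurons. The summed level of Cbln3, Gabra6, Pcp2 and Ppp1r17 was 31.5 CPM (counts scaled to library size) there and 0.258 to 0.739 CPM in the other 5 libraries. These 4 genes did not enter the test, since too few libraries reached the minimum count. Values that moved most when it was left out are also given without it.

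The difference between UA and sham was small across the transcriptome. At an adjusted p of 0.05, 5 genes (0.0343% of those tested) were higher in UA and 0 (0.00%) were lower, by the quasi-likelihood test of edgeR. At an unadjusted p under 0.05 there were 1033 genes (7.08%), 638 higher (4.37%) and 395 lower (2.71%). The 5 genes were Arc, Trib1, Dusp1, Sik1 and the uncharacterised locus LOC118567384. The median absolute log2 fold change over all genes tested was 0.0813, and the median signed one was 0.000637. The count of 5 depends on the fit. It was 0 when all 15 libraries shared 1 estimate of the spread, 87 with DESeq2, and 0 without sham replicate 1 or without sham replicate 2. Without sham replicate 3 it was 9, without UA replicate 2 it was 15, and without UA replicate 1 or UA replicate 3 it was 22 each.

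**Figure D1:**
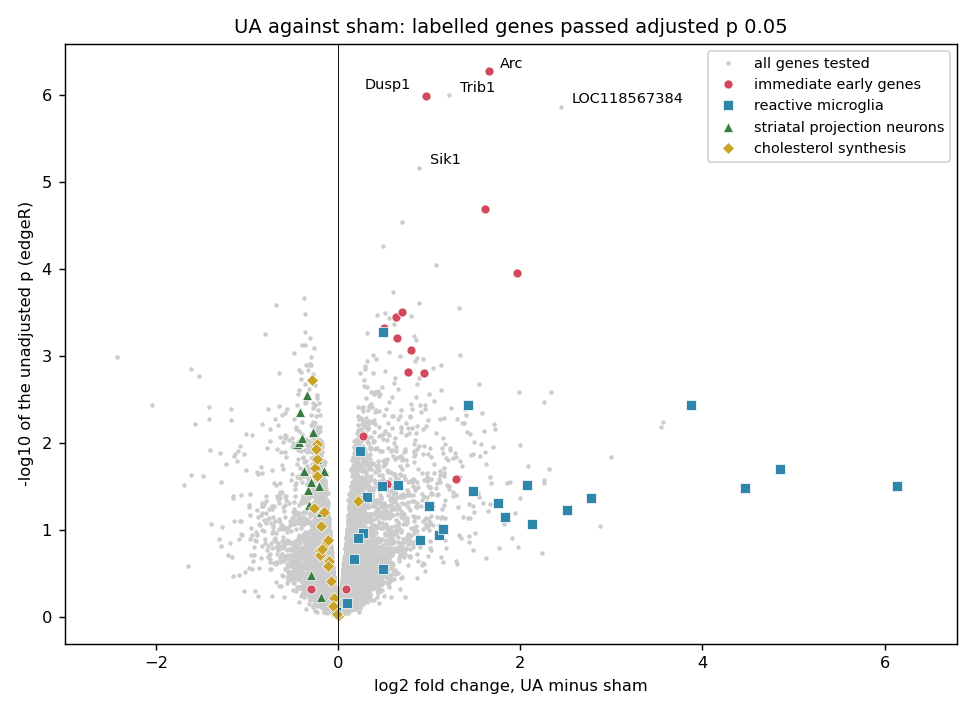
Each point is 1 gene, placed by its log2 fold change (UA minus sham) and by -log10 of its unadjusted p, with 4 gene lists in colour; 2 genes lie outside the plotted range of fold change. The 5 labelled genes passed adjusted p 0.05, all on the higher side, and reactive microglia genes spread far to the right at modest p.

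Promoter sequences are shown for 4 immediate early genes, to set Dusp1, which passed the threshold, and Nr4a1 and Egr2, with adjusted p of 0.0501 and 0.165, beside Npas4, whose groups overlapped. They come from the RefSeq promoter table for GRCm38.p6 and cover the 250 bases before the start site, 5′ to 3′ on the strand of the gene. Capitals mark the cyclic AMP response element (CRE) TGACGTCA, its shorter core TGACG on either strand (CGTCA where it lies on the other strand), and the serum response factor site known as the CArG box. Dusp1 lies at chr17:26508473-26508722 on the minus strand, Nr4a1 at chr15:101266596-101266845 on the plus strand, Egr2 at chr10:67537619-67537868 on the plus strand, and Npas4 at chr19:4989972-4990221 on the minus strand.
Dusp1: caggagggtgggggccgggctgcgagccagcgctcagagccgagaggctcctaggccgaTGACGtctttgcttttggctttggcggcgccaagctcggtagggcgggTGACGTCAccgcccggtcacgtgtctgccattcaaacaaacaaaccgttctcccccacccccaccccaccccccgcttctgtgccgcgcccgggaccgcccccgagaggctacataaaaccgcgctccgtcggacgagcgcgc
Nr4a1: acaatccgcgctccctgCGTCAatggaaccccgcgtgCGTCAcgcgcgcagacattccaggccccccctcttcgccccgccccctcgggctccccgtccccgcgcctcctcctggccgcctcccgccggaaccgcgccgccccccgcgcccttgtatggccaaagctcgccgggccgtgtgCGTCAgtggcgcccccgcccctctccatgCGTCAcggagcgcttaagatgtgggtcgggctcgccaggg
Egr2: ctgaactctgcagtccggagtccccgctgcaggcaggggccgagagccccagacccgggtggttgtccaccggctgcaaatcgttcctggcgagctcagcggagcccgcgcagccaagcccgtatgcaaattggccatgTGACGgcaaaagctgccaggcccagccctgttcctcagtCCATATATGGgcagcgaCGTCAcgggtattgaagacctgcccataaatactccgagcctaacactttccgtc
Npas4: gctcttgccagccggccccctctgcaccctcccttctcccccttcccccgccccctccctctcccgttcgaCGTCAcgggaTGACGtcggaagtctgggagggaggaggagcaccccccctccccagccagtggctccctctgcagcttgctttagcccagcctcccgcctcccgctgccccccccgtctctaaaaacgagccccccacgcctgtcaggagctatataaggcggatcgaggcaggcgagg

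The full CRE of Dusp1 began 143 bases before its start site, and it contains a core on each strand. Nr4a1 held 4 cores and no full CRE, while the Egr2 window, 1 of 5 listed for that gene, held 2 cores and a CArG box. Npas4 held 2 cores. The table had a promoter for 14 of the 22 genes that make up the immediate early list and the 10 genes with the smallest p. These 14 include 12 from the immediate early list, which was itself chosen, and of the 5 genes that passed only Dusp1. A core stood in at least 1 window of 13 of these 14 genes, against 19.8% of all 27018 genes with promoters in the table. A full CRE stood in 2 of them (1.77% of all genes) and a CArG box in 1 (1.62% of all genes). A match describes letters in this window and is not a measured binding site.

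Arc encodes a synaptic protein that governs removal of AMPA receptors, and its gene lies at chr15:74669081-74672570 (GRCm38). Its level was 68.8, 70.8 and 89.6 CPM in the sham libraries and 233, 214 and 276 CPM in the UA libraries. The lowest UA library was thus above the highest sham library by more than the whole range of either group. The log2 fold change was 1.66 ± 0.12 (SE), with an edgeR adjusted p of 0.00498. Vehicle libraries spread from 31.5 to 187 CPM, and JA from 35.8 to 386 CPM.

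Dusp1, a phosphatase that switches off MAP kinases (chr17:26505591-26508472), stood at 25.9, 27.4 and 32.3 CPM in sham and 54.8, 50.5 and 61.7 CPM in UA. The groups did not overlap, and the log2 fold change was 0.96 ± 0.10 (edgeR adjusted p 0.00498). Trib1, a pseudokinase that brings targets to a ubiquitin ligase (chr15:59648654-59657099), stood at 12.8, 11.4 and 13.1 CPM in sham and 28.3, 24.5 and 34.4 CPM in UA. This is a log2 fold change of 1.22 ± 0.13 (edgeR adjusted p 0.00498). Sik1, a kinase that restrains CREB-driven transcription by acting on its coactivators (chr17:31844248-31855804), was tight within sham, at 10.2, 9.50 and 9.74 CPM, and reached 16.2, 18.1 and 20.2 CPM in UA. Its log2 fold change was 0.89 ± 0.11 (edgeR adjusted p 0.0201). All 3 UA libraries took part in each of these differences, UA replicate 2 being the lowest of the 3 for Arc, Dusp1 and Trib1.

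LOC118567384 had the largest fold among the 5 and the fewest reads. Its raw counts were 21, 18 and 35 in sham and 116, 165 and 129 in UA, or 1.11, 0.94 and 1.83 CPM against 6.43, 8.16 and 6.65 CPM. The log2 fold change was 2.45 ± 0.26 (edgeR adjusted p 0.00498). Vehicle libraries were just below the UA range, at 5.88 to 6.24 CPM. No coordinates were matched for this locus, and no function is given here.

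The next 5 genes by p were Nr4a1 and Egr2, both on the immediate early list, and Klf10, Midn and Ccn1, which are not, and their adjusted p was above the threshold. Nr4a1, an orphan nuclear receptor (chr15:101253902-101274795), was at 39.9, 41.8 and 36.2 CPM in sham and 115, 95.6 and 150 CPM in UA. Its log2 fold change of 1.61 ± 0.16 came with an edgeR adjusted p of 0.0501, and without UA replicate 2 that p was 0.000383. Klf10, a zinc finger repressor, had a log2 fold change of 0.70 (adjusted p 0.0609, and 0.0183 without UA replicate 2). Midn, a nuclear protein that leads targets to the proteasome, was at 0.49 (adjusted p 0.0991, and 0.0342 without UA replicate 2), and Ccn1, a secreted matrix protein, at 1.08 (adjusted p 0.146). Egr2, a zinc finger activator, stood at 2.69, 2.51 and 5.45 CPM in sham and 13.9, 11.1 and 16.6 CPM in UA, with a log2 fold change of 1.96 ± 0.29 and an adjusted p of 0.165. For each of these 5 genes all 3 UA libraries exceeded all 3 sham libraries, as for 6.39% of all genes. The 5 were picked by p from these same data, which favours such genes.

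Of the 16 immediate early genes tested, 2 passed the adjusted threshold (Arc and Dusp1), against 10 with DESeq2, 5 without sham replicate 3 and 0 without sham replicate 1 or sham replicate 2. Of the 16, 14 were higher at an unadjusted p under 0.05, against 4.37% of all genes. In 12 of the 16 every UA library was above every sham library, against 6.39% of all genes. The median log2 fold change of the list was 0.74, and 0.79 without UA replicate 2. UA replicate 3 was the highest UA library in 15 of the 16. Fos, the partner of Jun in AP-1 (named with Egr1, Junb and Npas4 after their values were seen), was at 8.45, 11.6 and 23.4 CPM in sham and 34.1, 30.5 and 42.2 CPM in UA. Its sham replicate 3 was high, and the log2 fold change of 1.30 ± 0.41 had an edgeR adjusted p of 0.594. Egr1 and Junb, further activators of the wave, had log2 fold changes of 0.95 (adjusted p 0.347) and 0.65 (adjusted p 0.285).

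Npas4, a factor that responds to neuronal calcium entry, was the member below 0. It stood at 13.7, 16.4 and 31.4 CPM in sham and 11.9, 16.7 and 21.2 CPM in UA, so the groups overlapped. Its log2 fold change was -0.30 ± 0.40 (edgeR adjusted p 0.941), and 0.14 without sham replicate 3. Bdnf, a secreted growth factor of neurons, was at 0.09 (adjusted p 0.939).

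**Figure D2:**
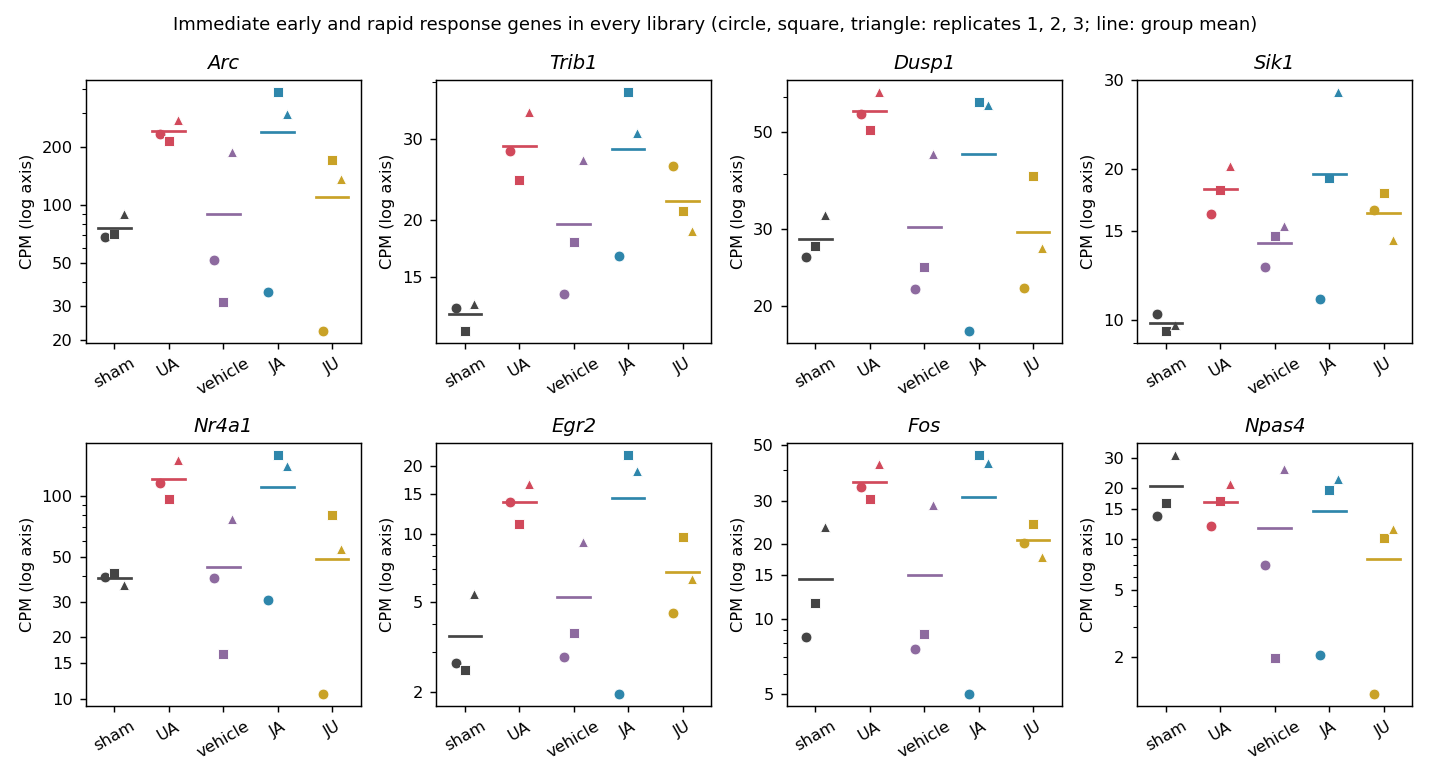
Levels of 8 genes in CPM on log axes in every library of the 5 groups, with circles, squares and triangles for replicates 1, 2 and 3 and a line at each group mean. For Arc, Trib1, Dusp1, Sik1, Nr4a1, Egr2 and Fos the 3 UA points lie above the 3 sham points, and for Npas4 they overlap.

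The spread of these genes was narrower in sham and UA than in the other groups. The mean log2 CPM of the list, relative to the sham mean, was -0.21, -0.07 and 0.28 in sham and 0.76, 0.69 and 1.05 in UA. In vehicle it was -0.41, -0.77 and 0.63, in JA -0.75, 1.13 and 1.10, and in JU -1.04, 0.61 and 0.20. JA replicates 2 and 3 were thus as high as UA, while JA replicate 1 was below every sham library.

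Against vehicle, 2157 of 14804 genes passed an adjusted p of 0.05 (14.6%), 1145 of them higher in UA (7.73%) and 1012 lower (6.84%), and 0 of the 10 genes with the smallest p against sham were among them. Both comparisons use the UA libraries. Dusp1 had a log2 fold change of 0.87 over vehicle (edgeR adjusted p 0.0667), Klf10 0.81 (0.0607), Nr4a1 1.43 (0.0884) and Arc 1.41 (0.147). That count of 2157 was 1 after a correction for GC content, and 0 without vehicle replicate 3, UA replicate 1 or UA replicate 3. It was 6 without UA replicate 2, 549 with all 15 libraries in the fit, 4315 with all except JU replicate 1 and 3686 with DESeq2. Of the 10 genes, DESeq2 called 3 against vehicle. Against JA, 0 of 14594 genes passed (0.00%) in edgeR, with 487 at an unadjusted p under 0.05 and 2 by DESeq2. The log2 fold change of Arc over JA was 0.01.

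Genes of reactive microglia were above sham in most cases but with wide spread between the UA libraries, and 0 passed the adjusted threshold in edgeR, against 4 with DESeq2 and 2 without UA replicate 2. Of 27 tested, 26 had a positive fold change, against 50.2% of all genes, and 14 were higher at an unadjusted p under 0.05 (4.37% of all genes). Members that reach the minimum count only in the UA libraries, such as Itgax, could only come out positive. The median log2 fold change was 1.11, and 0.43 without UA replicate 2, which was the highest UA library in 25 of the 27. Without that library Itgax, at a log2 fold change of 3.88, left the test, so the medians cover different genes. The same library carried the cerebellar transcripts, and their part in this result was not tested. Apoe, the lipid carrier that phagocytic microglia and astrocytes release, had the smallest p of the list. It stood at 1236, 1152 and 1245 CPM in sham and 1579, 2000.3 and 1552 CPM in UA, without overlap. The log2 fold change was 0.50 ± 0.09 (edgeR adjusted p 0.282), and 0.37 without UA replicate 2. Vehicle libraries held 3783 to 7132 CPM.

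Spp1 (osteopontin) and Trem2, a lipid receptor of microglia, were added after their values were seen. Spp1 was at 11.1, 13.4 and 22.99 CPM in sham and 11.48, 119 and 76.5 CPM in UA, so UA replicate 1 lay within sham. In vehicle it was at 991 to 3021 CPM, far above every UA library. Trem2 was at 9.98, 8.35 and 9.74 CPM in sham and 13.3, 44.5 and 20.5 CPM in UA, with a log2 fold change of 1.49 ± 0.51 and an edgeR adjusted p of 0.644. Without UA replicate 2 it was 0.85 (adjusted p 0.272). Lgals3, a galectin of phagocytes, was at 1.32, 1.78 and 1.10 CPM in sham and 1.89, 5.59 and 3.82 CPM in UA (log2 fold change 1.43, adjusted p 0.433). Relative to the sham mean, the list score was 0.54, 2.18 and 0.99 in UA and 3.16 to 4.48 in vehicle. In such whole-tissue samples, more cells of a type and more RNA per cell cannot be told apart.

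Homeostatic microglia genes had a positive fold change in 12 of 12, against 50.2% of all genes, and 8 were higher at an unadjusted p under 0.05 (4.37% of all genes). In edgeR 0 passed the adjusted threshold, and 1 did with DESeq2. The median was 0.36, and 0.28 without UA replicate 2. P2ry12, the ADP receptor that guides microglial processes, was at 57.4, 74.8 and 71.6 CPM in sham and 94.0, 109 and 79.7 CPM in UA (log2 fold change 0.47, edgeR adjusted p 0.467). Cx3cr1, the fractalkine receptor, was at 0.64 (adjusted p 0.486), and at 0.41 without UA replicate 2. Tmem119, a microglial surface protein, was at 0.29 (adjusted p 0.486). Cx3cr1 overlaps a gene on the opposite strand, and its reads could come from either.

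Complement genes followed the microglia lists. Of 13 tested, 0 passed the adjusted threshold in edgeR and 3 with DESeq2. A positive fold change was seen in 12, against 50.2% of all genes. At an unadjusted p under 0.05, 7 were higher (4.37% of all genes). The list median was 1.12, and 0.48 without UA replicate 2 over the genes still tested. C4b, a component of the classical cascade, was at 15.2, 12.4 and 14.2 CPM in sham and 21.5, 54.6 and 47.6 CPM in UA. Its log2 fold change was 1.57 ± 0.39 (edgeR adjusted p 0.486), and UA replicates 2 and 3 were both high. C1qc, a chain of the initiating C1q complex, was at 20.5, 22.3 and 22.1 CPM in sham and 32.4, 73.2 and 40.0 CPM in UA (adjusted p 0.55). Without UA replicate 2 its adjusted p was 0.0342, at a log2 fold change of 0.74. Itgam, a complement receptor subunit, had a log2 fold change of 0.58 (adjusted p 0.486), and 0.33 without UA replicate 2.

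**Figure D3:**
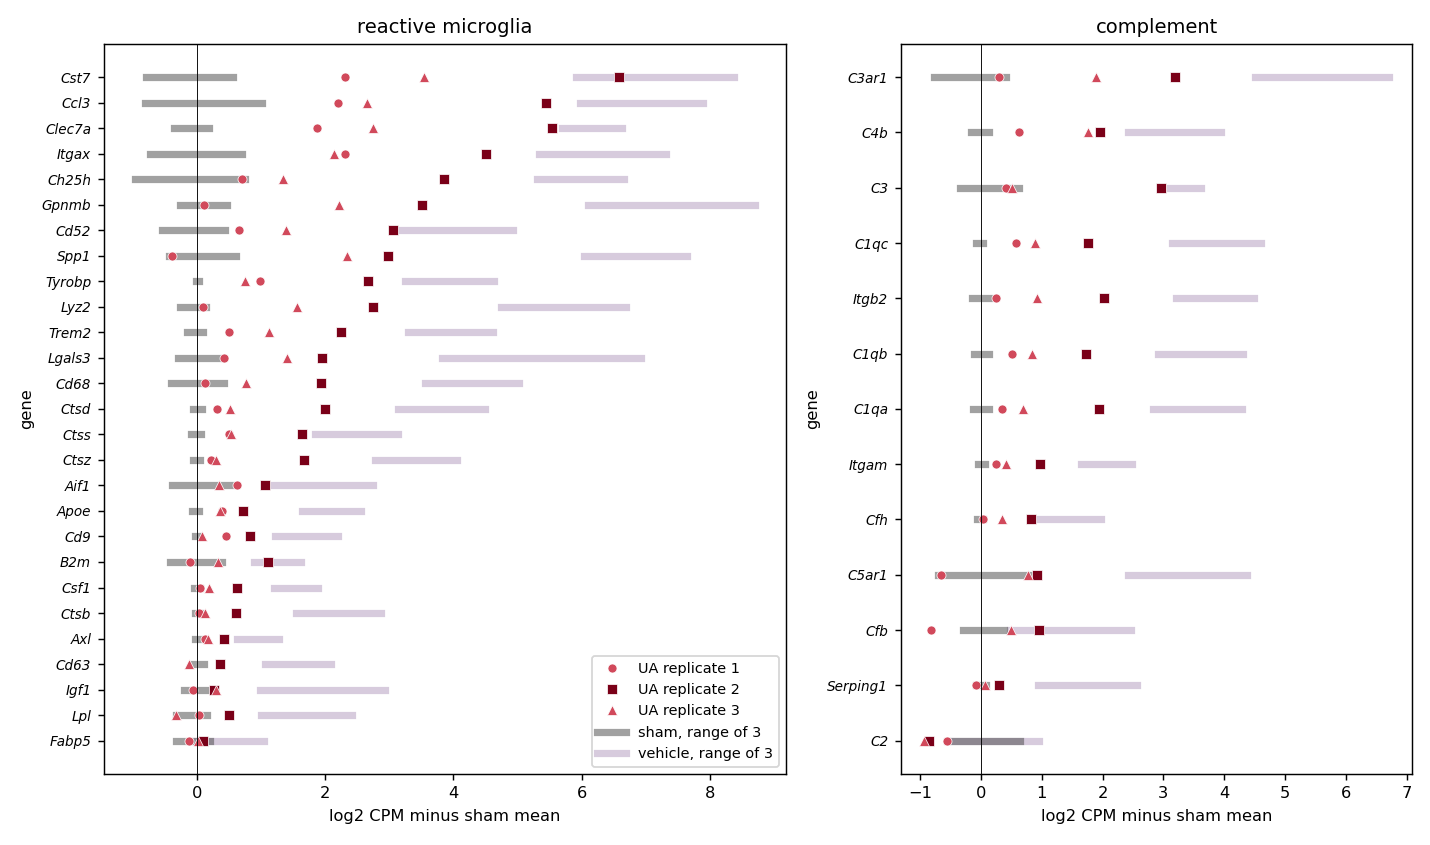
Log2 CPM minus the sham mean of each reactive microglia gene (left) and complement gene (right), with 1 red symbol per UA library, a grey bar for the range of sham and a purple bar for the range of vehicle. UA replicate 2 is the highest of the UA libraries for 25 of 27 and 12 of 13 genes, and for most genes lies between sham and vehicle.

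Reactive astrocyte genes, of which 0 passed in edgeR or DESeq2, had a median of 0.41 over 18 tested. Of these, 16 were positive, against 50.2% of all genes. At an unadjusted p under 0.05, 5 were higher (4.37% of all genes). Without UA replicate 2 the median was 0.13 over the genes still tested. Gfap, the intermediate filament of astrocytes, was at 186, 169 and 220 CPM in sham and 394, 957 and 422 CPM in UA. Every UA library was above every sham library, and UA replicate 2 was far above the other UA libraries. Over all 6 libraries the log2 fold change was 1.63 ± 0.44 with an edgeR adjusted p of 0.531. Without UA replicate 2 it was 1.09, and the adjusted p was 0.0023. Vehicle libraries were at 1061, 2534 and 1403 CPM. Cd44, a hyaluronan receptor, was at 0.77 (adjusted p 0.466), and at 0.45 without UA replicate 2. Timp1, an inhibitor of matrix proteases, was at 2.26 from counts near the floor (adjusted p 0.433), and did not enter the test without that library. It reached the minimum count in the UA libraries only, so its higher level in UA was set by the filter. It is among the positive members counted above.

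Markers of striatal projection neurons lay below sham in all 16 tested, against 7260 of all 14590 genes. Of the 16, 12 were lower at an unadjusted p under 0.05, against 2.71% of all genes. The median log2 fold change was -0.31, 0 passed the adjusted threshold in edgeR and 1 with DESeq2, and 8 had every UA library below every sham library, against 6.0% of all genes. The list score relative to the sham mean was 0.00, 0.11 and -0.11 in sham and -0.12, -0.34 and -0.49 in UA. Adora2a, the adenosine receptor of the indirect pathway, was at 70.0, 79.9 and 68.3 CPM in sham and 64.4, 55.1 and 53.03 CPM in UA. Its log2 fold change was -0.34 ± 0.09 (edgeR adjusted p 0.413). Rgs9, which shortens dopamine receptor signalling, was at 106, 114 and 90.6 CPM in sham and 88.8, 76.6 and 68.2 CPM in UA (log2 fold change -0.41, adjusted p 0.443), and Adcy5, the striatal adenylyl cyclase, was at -0.27 (adjusted p 0.466). Markers of all neurons were nearer to 0, with a median of -0.04 over 14 genes.

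Thalamic markers, of which 0 passed in edgeR and 2 with DESeq2, had a median of -0.44 over 12 tested. At an unadjusted p under 0.05, 6 were lower, against 2.71% of all genes. This list separated sham replicate 3 from the other sham libraries. Its score was 0.18 and 0.28 in sham replicates 1 and 2 but -0.46 in sham replicate 3, level with -0.45, -0.46 and -0.51 in UA. Without sham replicate 3 the median was -0.55 and 2 members passed in edgeR. Slc17a6, the vesicular glutamate transporter of subcortical neurons, was at 46.8, 54.7 and 40.1 CPM in sham and 32.05, 35.8 and 33.1 CPM in UA (log2 fold change -0.49 ± 0.11, edgeR adjusted p 0.338). Tnnt1, a troponin used as a thalamic marker, was at 9.19, 9.55 and 4.29 CPM in sham and 4.71, 3.16 and 3.61 CPM in UA (adjusted p 0.466). The part of tissue sampled in these differences was not tested.

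Cholesterol synthesis genes had a negative fold change in 21 of 22, against 7260 of all 14590 genes. Of the 22, 6 were lower at an unadjusted p under 0.05, against 2.71% of all genes. In edgeR and in DESeq2, 0 passed the adjusted threshold. The median was -0.16, and it was -0.11 without UA replicate 2 and -0.12 without sham replicate 3, the highest sham library for 16 of the 22. Dhcr7, which performs a final reduction, was at 55.6, 60.9 and 57.2 CPM in sham and 47.8, 49.9 and 44.98 CPM in UA (log2 fold change -0.28, edgeR adjusted p 0.368). Fdft1, which makes squalene, was at -0.23 (adjusted p 0.486), and it overlaps a gene on the opposite strand. List scores in vehicle, -1.06 to -0.48, were below those of UA, -0.21 to -0.04.

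The transferrin receptor Tfrc, the cell's iron importer, stood at 150, 140 and 146 CPM in sham and 124, 120 and 117 CPM in UA. The groups did not overlap, and the log2 fold change was -0.27 ± 0.06 (edgeR adjusted p 0.334). Vehicle was lower still, at 56.4, 70.0 and 71.6 CPM, and UA was above vehicle by 0.86 ± 0.11 on the log2 scale (edgeR adjusted p 0.0355). That call depended on the fit. After the GC correction, or without vehicle replicate 3 or any 1 UA library, 0 iron genes passed against vehicle. The ferritin light chain Ftl1 had a log2 fold change of 0.34 over sham (adjusted p 0.433) and the heavy chain Fth1 0.13 (adjusted p 0.705). Ftl1 has near-identical copies in the genome, and its reads are uncertain. The median of the 10 iron genes was 0.05, and 0 passed in edgeR and 2 with DESeq2.

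Bile acid genes were examined because the study title names ursodeoxycholic acid. Of 26 in the table, 12 could be tested, and their median was 0.05. In edgeR and in DESeq2, 0 passed. Before adjustment, 3 of the 12 were under 0.05, against 7.08% of all genes. The bile acid importers Slc10a1 and Slc10a2 had 0 counts in each of the 6 libraries, which allows up to 0.148 to 0.166 CPM. The bile acid receptors Nr1h4 and Gpbar1 had at most 4 and 2 counts. Abcc3, an exporter of organic anions, was at 1.37, 1.46 and 1.47 CPM in sham and 1.94, 3.26 and 3.35 CPM in UA (log2 fold change 0.99, edgeR adjusted p 0.46). The vitamin D receptor Vdr, which lithocholic acid can bind, was at 0.739, 0.627 and 1.10 CPM in sham and 0.388, 0.297 and 0.361 CPM in UA (adjusted p 0.528). Vdr reached the minimum count in the sham libraries only, so its lower level in UA was set by the filter. Cyp7b1, an oxysterol hydroxylase, was at 0.23 (adjusted p 0.682).

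Clock genes had a median of 0.00 over 15 tested, and 0 passed in edgeR and 1 with DESeq2. Dbp, an output factor of the clock, was at 127, 121 and 113 CPM in sham and 97.0, 76.3 and 99.7 CPM in UA (log2 fold change -0.40, edgeR adjusted p 0.368), while Per1, a repressor that is also rapidly inducible, was at 0.41 (adjusted p 0.465), and at 0.25 without UA replicate 3. Nr1d1, a nuclear receptor of the clock, was at -0.30 (adjusted p 0.45). Dbp and Nr1d1 overlap genes on the opposite strand. Genes of the unfolded protein and integrated stress response had a positive fold change in 14 of 18, against 50.2% of all genes. Of the 18, 6 were higher at an unadjusted p under 0.05 (4.37% of all genes) and 0 were lower. The members Trib3, Asns and Chac1 were below the sham mean in all 3 UA libraries. For Chac1 every UA library was also below every sham library. In edgeR and in DESeq2, 0 passed, and the median was 0.11. The endoplasmic reticulum chaperones and folding factors Sdf2l1, Pdia4 and Calr had the smallest p of the list, at log2 fold changes of 0.53, 0.27 and 0.21 (adjusted p 0.433, 0.465 and 0.466). Atf3, a stress-induced factor, had the largest fold of the list at 1.55, with overlapping groups.

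**Figure D4:**
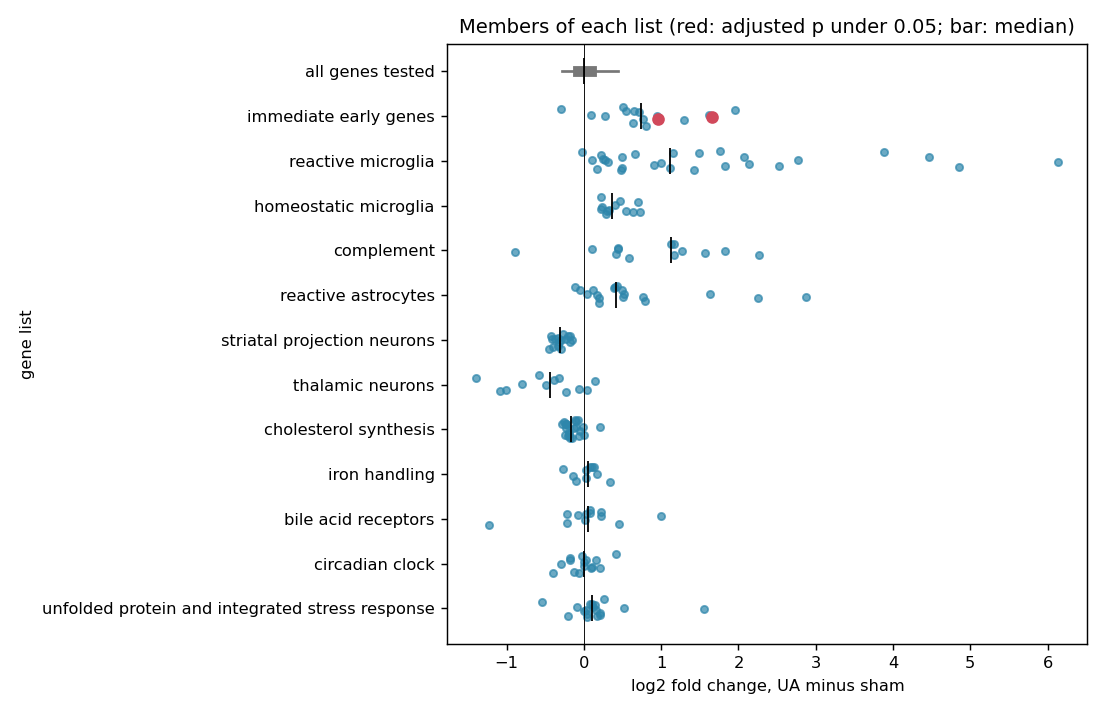
Log2 fold change (UA minus sham) of each member of 12 gene lists, with a bar at the list median and, at the top, the 5th to 95th (line) and 25th to 75th (box) percentiles of all genes tested. The 2 red points, Arc and Dusp1, passed adjusted p 0.05; the striatal members all lie below 0 and the microglia members spread widest.

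For the reactive microglia, homeostatic microglia, complement and reactive astrocyte lists, every UA library was nearer to the sham mean than every vehicle library. The reactive astrocyte score was 0.10, 1.12 and 0.35 in UA and 1.43 to 2.57 in vehicle, and the complement score 0.09, 1.44 and 0.67 in UA and 2.32 to 3.59 in vehicle. For the striatal list the groups overlapped, since vehicle replicate 1 was at -0.20. Of the 43 genes named by the rule, 14 differed between UA and vehicle at an edgeR adjusted p of 0.05, against 14.6% of all genes. In UA, 4 of them were higher and 10 lower. The list members added later were not counted. None of the 43 differed after the GC correction, or without vehicle replicate 3 or any 1 UA library.

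**Figure D5:**
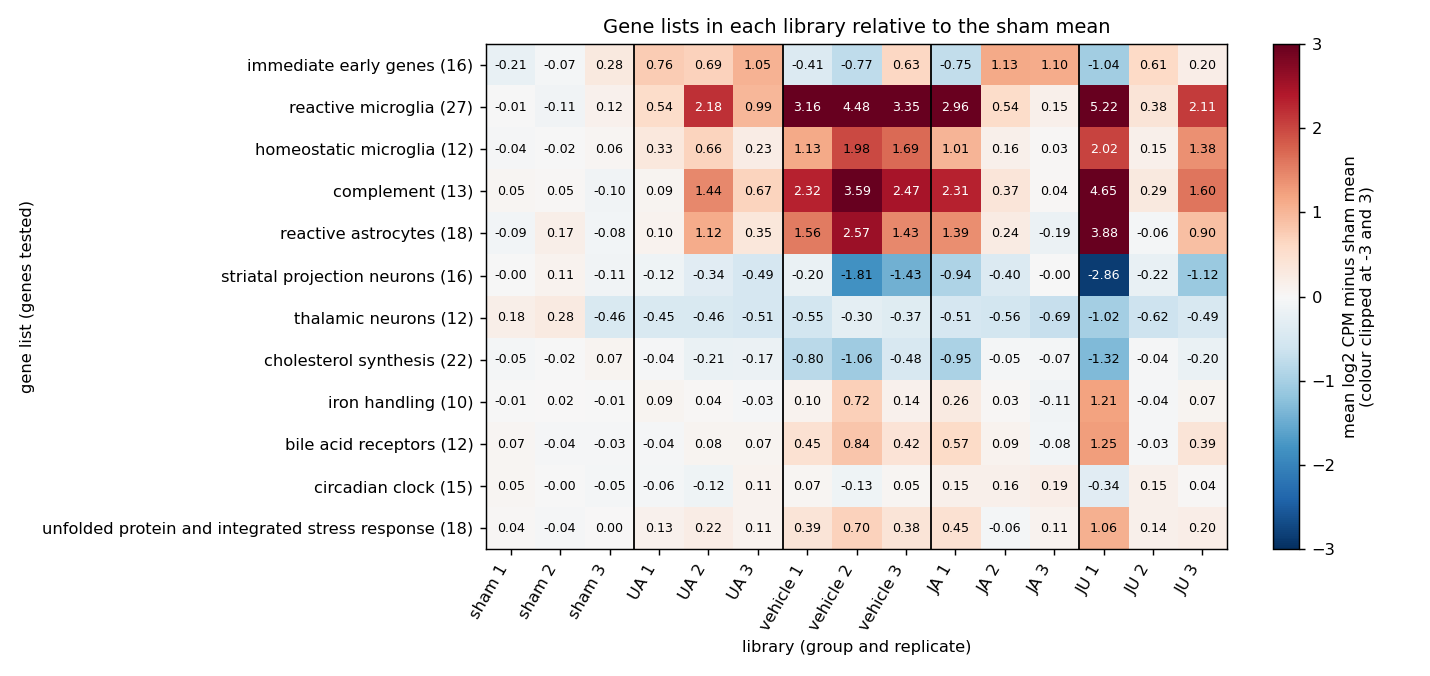
Mean log2 CPM of each list minus the sham mean (rows, with the number of genes tested) in each of the 15 libraries (columns), with colour clipped at -3 and 3. The 3 UA columns are pale beside the vehicle columns in the glial lists, UA 2 being the strongest of them, and are evenly raised for the immediate early genes.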

How the data were processed

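Brain RNA was isolated with a mirVana kit and polyadenylated RNA sequenced from TruSeq Stranded mRNA libraries, per the labels' protocols. The deposited table holds whole-number read counts per gene, not normalized, per the file headers. It also holds FPKM values (fragments scaled by gene length and depth, made by the authors), used only as an alternative after adding 0.1 or 1 and taking log2. The build GRCm38 (mm10) and the tools HISAT2, Trimmomatic, DESeq and Cufflinks are named in the submitters' processing notes. How reads were counted, and whether by strand, is not given in the sources used. 1 count column matched no sample and was not used.

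Counts were tested by edgeR 4.0.16 quasi-likelihood in R 4.3.3 (TMM, robust, group as the only term) on the 6 libraries compared, with Benjamini-Hochberg adjustment and a threshold of 0.05. With 4 residual degrees of freedom, the biological coefficient of variation came to 9.98%. Levels are CPM with TMM factors over all 15 libraries, and list scores are means of log2 CPM with a prior count of 2. Each SE is the size of the fold change over the root of its F statistic. The floor of 3 counts was 0.148 to 0.166 CPM and covers counting error only. Coordinates came from RefSeq GRCm38.p6 and matched 18801 genes (99.3%). In simulated counts for UA against sham, 200 of 14581 genes were changed, all averaging at least 1 CPM. The recovered share was 86% at a 2-fold and 99% at a 4-fold change. Of 207 calls, 22 were false, a larger share than the threshold of 0.05 allows. Alternatives used DESeq2 1.42.0, limma 3.58.1, other scalings and filters, a correction for GC content, all 15 libraries, a replicate block and each library left out.

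The naming rule takes genes that passed, averaged 1 CPM or more, and had no overlap between groups and no predicted symbol. Since 4 genes met this, the 10 with the smallest p were named, then up to 3 members of each list with the smallest p. Not every gene so taken is reported. The members and the 44 lists were chosen with earlier results of these data known.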

Additional observations from a re-analysis of the deposited data

How the results depend on the processing

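The number of genes past the threshold between UA and sham depended on the fit. The main counts were 5 in all, 5 higher and 0 lower. With all 15 libraries, and with all except JU replicate 1, they were 0, 0 and 0, with 184 and 392 genes at an unadjusted p under 0.05. DESeq2 gave 87 in all, 67 higher and 20 lower, and the 5 genes were among them. Across the 6 fits that left out 1 library each, they ran from 0 to 22 in all, 0 to 17 higher and 0 to 5 lower. With a replicate block the counts were 8, 7 higher and 1 lower, of which 4 were shared with the main fit, and with the block and a correction for GC content they were 11, 10 and 1. The labels give the groups the same replicate numbers, but same-numbered libraries correlated at 0.058, 0.093 and -0.015 in their deviations from the group means. Not every library correlated best with its own number, so the numbers were not taken to pair the samples. The GC correction alone gave 6, and limma voom, other scalings, other filters and the FPKM values gave 5 to 7. Arc, Trib1, Dusp1 and LOC118567384 passed in 15 of 19 alternatives each, Sik1 and Nr4a1 in 10 of 19. The fold change of Npas4 ran from -0.52 without sham replicate 1 to 0.144 without sham replicate 3. Of the 43 genes named by the rule, 14 differed from vehicle in the main fit and 1 with all 15 libraries. With the replicate block 25 did, and 0 with the GC correction. Leaving out 1 library each gave 0 to 16. With the block, 2730 genes differed from vehicle in all, 5 of the 10 with the smallest p against sham among them. Against JA, 0 named genes passed under each alternative run. With 3 libraries a group and the depths given above, fold changes of genes near the floor, such as Timp1 and Itgax, are poorly fixed.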

Other observations

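Among the genes ranked just behind the 10 smallest p, 3 are given here, chosen after their values were seen and from no list. Dusp6, a phosphatase of ERK, was at 57.0, 54.1 and 62.1 CPM in sham and 85.0, 75.8 and 102 CPM in UA (log2 fold change 0.60 ± 0.10, edgeR adjusted p 0.244). Dusp5, its nuclear relative, was at 5.28, 5.85 and 4.82 CPM in sham and 9.04, 8.60 and 11.9 CPM in UA (log2 fold change 0.89, adjusted p 0.247). Spry4, an inhibitor of receptor tyrosine kinase signalling, had a log2 fold change of 0.61 (adjusted p 0.259). All 3 UA libraries exceeded all 3 sham libraries for these 3 genes, as for 6.39% of all genes, and the choice favoured such genes.

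Tgtp1, an interferon-inducible GTPase, went the other way, at 0.581, 4.12 and 1.47 CPM in sham and 0, 0.0495 and 0 CPM in UA (edgeR adjusted p 0.259). It has a near-identical copy, so its reads are uncertain. The sham libraries alone met the minimum count for Tgtp1, so its direction was set by the filter. Pmch, which encodes melanin-concentrating hormone of the lateral hypothalamus, had 232 counts in sham replicate 2 and 4 to 24 in the other 5 libraries. The choroid plexus list score was 1.04 in UA replicate 1 and -0.62 and -0.66 in UA replicates 2 and 3, against 0.47, 0.22 and -0.69 in sham.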
